A study of Mus musculus with 8 samples.

Results

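The growth factor receptors of blood formation were compared between fractions of mouse bone marrow stem and progenitor cells that differ in a GFP reporter for Hdc, the gene of the histamine-producing enzyme histidine decarboxylase. The genes were taken from the count table by symbol and are Kit, Flt3, Csf1r, Csf3r, Csf2ra, Csf2rb, Csf2rb2, Il3ra and Il6ra. All 9 of them were present among the 23284 genes of the table, and all 9 were among the 13300 genes that passed the filter on low counts. The set was listed by symbol, with earlier results of these data known.

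RNA was sequenced from LSK cells, which lack lineage markers and carry Sca-1 and c-Kit on their surface, of Hdc-GFP mice on a C57BL/6 background. The cells were sorted by GFP into Hdc-GFPhi (4 libraries) and Hdc-GFPlo (4 libraries), with 2000 cells behind each library, and the marrow came from leg bones, ilium and vertebrae. Both fractions carry the same reporter and were sorted apart by GFP brightness, and the labels give no treatment, age, sex or number of animals. For Hdc-GFPhi replicate 4 the cell type is given as GFP+ rather than GFPhi, and the group of its title was used.

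Library totals were 21041170 to 22470121 counts in Hdc-GFPhi and 16726179 to 23051277 in Hdc-GFPlo. Ly6a, the gene of Sca-1, was at 125 ± 19.0 CPM (read counts scaled to library size by TMM) in Hdc-GFPhi and 119 ± 16.9 in Hdc-GFPlo. With the progenitor and leukocyte markers Cd34 and Ptprc, its summed level was 1727 to 1871 CPM in Hdc-GFPhi and 1898 to 2123 CPM in Hdc-GFPlo. Hdc-GFPlo replicate 3 stood apart from the other libraries of its fraction. Set against each of them over all genes, its counts gave a chi-square of 49.8 to 55.4 per degree of freedom, and the others gave 13.3 to 18.2 among themselves. The receptors whose values turn on this library are also given without it. Hdc-GFPhi was uneven too, at 18.5 between replicates 1 and 2 and 22.2 between replicates 3 and 4. Across these pairs the Hdc-GFPhi values were 28.9 to 38.2.

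These receptors belong to a pair of protein families. Kit, Flt3 and Csf1r are receptor tyrosine kinases that dimerise on binding stem cell factor, Flt3 ligand and macrophage colony-stimulating factor (M-CSF). Csf3r, Csf2ra, Csf2rb, Csf2rb2, Il3ra and Il6ra are cytokine receptors without a kinase of their own, which signal through Jak kinases and Stat factors. In mouse marrow Kit marks stem and progenitor cells, and Flt3 appears as multipotent progenitors lose long-term self-renewal and gain lymphoid potential.

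The pair Csf2rb and Csf2rb2 needs a look at sequence first, since counts can be traded between near-identical genes. Csf2rb encodes the beta chain shared by the receptors for GM-CSF, IL-3 and IL-5, and Csf2rb2 encodes a beta chain specific to IL-3 that mice carry next to it on chromosome 15. In the GENCODE transcripts the coding sequences are 2688 bases long for Csf2rb and 2634 for Csf2rb2, and 95.2% of 2628 aligned bases are identical. Of the 50-base windows of the Csf2rb2 coding sequence, 26.6% occur unchanged in Csf2rb, and of the 100-base windows 11.3% do. The longest identical run has 242 bases, at coding positions 2083 to 2324 in both genes. The stretches that differ most over 90 aligned bases, with 16 differences, are shown because reads over them tell the genes apart most clearly. Differing bases are in capitals, and the positions are GRCm38 chr15:78338897-78338986 on the plus strand (exon 5 of Csf2rb) and chr15:78294345-78294434 on the minus strand (exon 4 of Csf2rb2).
Csf2rb: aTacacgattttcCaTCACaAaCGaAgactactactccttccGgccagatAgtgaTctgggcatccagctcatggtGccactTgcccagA
Csf2rb2: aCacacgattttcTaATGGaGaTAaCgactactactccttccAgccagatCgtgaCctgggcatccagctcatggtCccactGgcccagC
Neither the labels nor the processing notes say how reads that map to both genes were treated, and the split of counts between Csf2rb and Csf2rb2 is uncertain.

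None of the 9 receptor genes passed an adjusted p of 0.05 between the fractions (edgeR quasi-likelihood test, Benjamini-Hochberg adjustment over 13300 genes), where 0.947% of all tested genes did (0.241% higher and 0.707% lower in Hdc-GFPhi). Flt3 and Csf1r had the largest differences. Flt3 was 1.41-fold lower and Csf1r 2.16-fold lower in Hdc-GFPhi, with unadjusted p values of 0.0017 and 0.0038. The remaining 7 genes had unadjusted p values of 0.0517 to 0.93. Thus 2 of 9 genes had an unadjusted p under 0.05, both lower in Hdc-GFPhi, where 10.9% of all tested genes had one in either direction and 5.56% were lower. DESeq2 called Flt3 and Csf1r lower, where it called 1.67% of its genes lower, and limma voom called Flt3 lower, where it called 1.35% lower. In none of the 9 genes were all libraries of Hdc-GFPhi on one side of all libraries of Hdc-GFPlo, a separation seen in 6.92% of tested genes (3.38% higher and 3.54% lower in Hdc-GFPhi). The median log2 fold change of the 9 genes was -0.05, against -0.00045 for all tested genes.

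**Figure D1:**
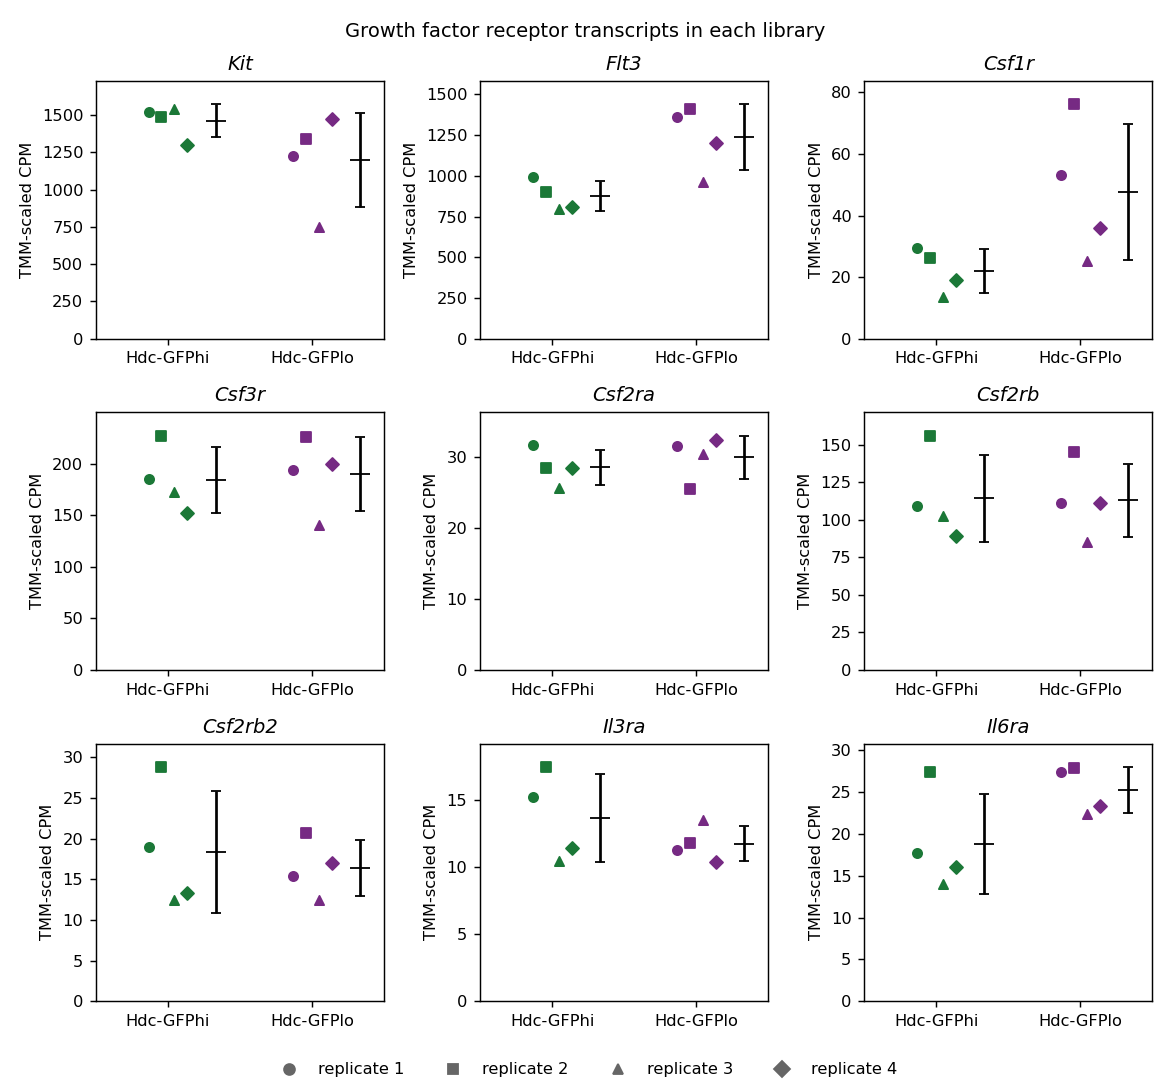
TMM-scaled CPM of the 9 receptor genes in each Hdc-GFPhi library (green) and each Hdc-GFPlo library (purple), with the marker shape giving the replicate number and the bars the mean ± SD (n = 4 each). Flt3 and Csf1r are lower in most Hdc-GFPhi libraries. Only Hdc-GFPhi replicate 4 for Kit, and only Hdc-GFPhi replicate 2 for Il6ra, lies within the Hdc-GFPlo range. Csf3r, Csf2ra, Csf2rb, Csf2rb2 and Il3ra overlap in more libraries.

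Levels between genes were compared per kilobase of the longest coding transcript. In Hdc-GFPhi the order was Kit at 279 ± 20.9, Flt3 at 239 ± 24.9, Csf3r at 52.9 ± 9.11, Csf2rb at 23.3 ± 5.91 and Csf2ra at 15.4 ± 1.33 CPM per kilobase (SD, n = 4). Il3ra followed at 5.90 ± 1.42, Csf1r at 4.70 ± 1.52, Csf2rb2 at 3.88 ± 1.59 and Il6ra at 2.17 ± 0.69 CPM per kilobase. In Hdc-GFPlo, Flt3 came first at 338 ± 55.4, ahead of Kit at 228 ± 60.1, Csf3r at 54.6 ± 10.2, Csf2rb at 23.1 ± 4.98 and Csf2ra at 16.2 ± 1.65 CPM per kilobase. Csf1r was at 10.1 ± 4.72, Il3ra at 5.08 ± 0.56, Csf2rb2 at 3.45 ± 0.73 and Il6ra at 2.92 ± 0.32 CPM per kilobase. Kit and Flt3 thus stood in opposite order in the fractions, as did Csf1r and Il3ra. The ranges of neighbours overlapped for Kit and Flt3 in each fraction, for Csf1r and Il3ra in each, for Csf2rb2 and Il6ra in each, for Csf1r and Csf2rb2 in Hdc-GFPhi, and for Csf2rb and Csf2ra and for Csf2ra and Csf1r in Hdc-GFPlo. The order depends on the transcript chosen. With the shortest complete coding transcript, Il6ra (3343 in place of 8639 bases) was at 5.62 CPM per kilobase in Hdc-GFPhi and 7.55 in Hdc-GFPlo, and Il3ra (738 in place of 2315 bases) at 18.5 in Hdc-GFPhi and 15.9 in Hdc-GFPlo. Csf2rb (2083 in place of 4900 bases) was then at 54.9 CPM per kilobase in Hdc-GFPhi and 54.3 in Hdc-GFPlo, next to Csf3r at 58.3 and 60.2 by the same rule.

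Kit, the receptor for stem cell factor and one of the proteins on which the cells were sorted, was at 1521, 1484, 1537 and 1299 CPM in Hdc-GFPhi replicates 1 to 4, against 1223, 1340.2, 748 and 1470.0 CPM in Hdc-GFPlo replicates 1 to 4. Hdc-GFPlo replicate 3 was the lowest of all, and the other libraries of both fractions overlapped. Kit averaged 1460.3 ± 109.5 CPM in Hdc-GFPhi, against 1195 ± 315 in Hdc-GFPlo (SD, n = 4 each), with a log2 fold change of 0.29 ± 0.17 (SE, 95% interval -0.07 to 0.65, edgeR adjusted p = 0.599). Without Hdc-GFPlo replicate 3 the log2 fold change was 0.13 (adjusted p = 0.614), and without Hdc-GFPlo replicate 4 it was 0.40 (adjusted p = 0.459). Kit was among the most abundant transcripts of these cells, with a mean log2 CPM at or above that of 99.8% of tested genes.

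Flt3, the receptor for Flt3 ligand on multipotent and lymphoid-primed progenitors, was at 994, 900.3, 799 and 810.0 CPM in Hdc-GFPhi replicates 1 to 4. In Hdc-GFPlo replicates 1 to 4 it was at 1363, 1414, 963 and 1204 CPM. A single pair of libraries crossed, since Hdc-GFPhi replicate 1 lay above Hdc-GFPlo replicate 3. The means were 876 ± 91.0 CPM in Hdc-GFPhi, against 1236 ± 203 in Hdc-GFPlo, and the log2 fold change was -0.50 ± 0.12 (95% interval -0.77 to -0.23, edgeR adjusted p = 0.0965). By p-value Flt3 ranked 234 of 13300 genes.

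Alternatives differed in whether Flt3 was called. Flt3 passed the threshold without Hdc-GFPlo replicate 3 (log2 fold change -0.58, adjusted p = 0.0128), with DESeq2 (adjusted p = 0.0168) and with limma voom (adjusted p = 0.0118). It also passed with a term for replicates 1 and 2 against 3 and 4 (adjusted p = 0.016), a split that the labels do not name and that earlier results of these data had shown. Across 19 alternatives the log2 fold change was -0.58 to -0.43 and the adjusted p 0.0118 to 0.321, with 6 calls. Within replicates 1 and 2, Flt3 averaged 947 CPM in Hdc-GFPhi, against 1388 in Hdc-GFPlo. Within replicates 3 and 4 it averaged 804 CPM in Hdc-GFPhi, against 1083.5 in Hdc-GFPlo. The fractions did not overlap on either side of the split, which adds no support, since the split was taken from these data. Each side holds only 2 libraries per fraction. Fractions also did not overlap for Kit and Il3ra within replicates 1 and 2, and for Csf2ra and Il6ra within replicates 3 and 4. Kit and Il6ra kept their direction across the split. The log2 ratio of means turned from 0.50 in replicates 1 and 2 to -0.13 in replicates 3 and 4 for Il3ra. For Csf2ra it turned from 0.074 to -0.21. The share of all genes separated in this way was not computed.

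Csf1r, the M-CSF receptor that guides monocyte and macrophage development, was at 29.6, 26.1, 13.5 and 19.1 CPM in Hdc-GFPhi replicates 1 to 4. In Hdc-GFPlo replicates 1 to 4 it was at 53.1, 76.1, 25.3 and 36.0 CPM. Hdc-GFPhi replicates 1 and 2 lay above Hdc-GFPlo replicate 3 and below the other Hdc-GFPlo libraries. The raw counts behind these values ranged over 304 to 663 in Hdc-GFPhi and over 456 to 1281 in Hdc-GFPlo. Csf1r averaged 22.1 ± 7.16 CPM in Hdc-GFPhi, against 47.6 ± 22.2 in Hdc-GFPlo, with a log2 fold change of -1.11 ± 0.31 (95% interval -1.79 to -0.43, edgeR adjusted p = 0.146).

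Csf1r had the largest within-fraction SD of the 9 receptors, 0.60 in log2 CPM, where the median over all tested genes was 0.23. Its coefficient of variation was 32.4% in Hdc-GFPhi, where that of Csf2rb2 was larger (41.0%), and 46.6% in Hdc-GFPlo. Csf1r was called lower with DESeq2 (adjusted p = 0.0139) and with the term for replicates 1 and 2 against 3 and 4 (log2 fold change -1.06, adjusted p = 0.00471). Voom (adjusted p = 0.0615) and the fit without Hdc-GFPlo replicate 3 (log2 fold change -1.30, adjusted p = 0.0659) missed the threshold. Within replicates 1 and 2 the means were 27.8 CPM in Hdc-GFPhi, against 64.6 in Hdc-GFPlo. Within replicates 3 and 4 they were 16.3 CPM in Hdc-GFPhi, against 30.6 in Hdc-GFPlo, again without overlap on either side. Here too each side holds only 2 libraries per fraction, and the split was taken from these data. The share of all genes separated in this way was not computed, so the separation adds no support. Over 19 alternatives the log2 fold change lay between -1.30 and -0.79 and the adjusted p between 0.00471 and 0.379.

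Markers of lymphoid progenitors, and some of monocytes and macrophages, were lower in Hdc-GFPhi beside Flt3 and Csf1r. All 7 lymphoid progenitor markers (Dntt, Il7r, Rag1, Rag2, Cd79a, Vpreb1 and Ebf1) were called lower in Hdc-GFPhi, with a summed level of 190.1 to 356 CPM against 1061 to 1625 CPM in Hdc-GFPlo. Of 8 measured monocyte and macrophage markers 3 were called lower and 1 of the rest (Cd68) had a log2 fold change above 0, with a sum of 148 to 207 CPM in Hdc-GFPhi, against 224 to 284 in Hdc-GFPlo. Of all tested genes 0.707% were called lower. None of 4 tested dendritic cell markers other than Flt3 was called by edgeR (1 had an unadjusted p under 0.05, and DESeq2 called 1 and voom 0), and the sum of all 6 was 65.7 to 83.7 CPM in Hdc-GFPhi, against 71.0 to 102 in Hdc-GFPlo. No marker of these lists was at 0 in all libraries, though Siglech, a dendritic cell marker, had no count in at least 1 Hdc-GFPhi library. In bulk RNA, fewer cells of a type and less RNA per cell cannot be told apart, and the part of these markers in the Flt3 and Csf1r values was not tested.

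The colony-stimulating factor receptors of granulocytes differed little between the fractions. Csf3r, the G-CSF receptor of the neutrophil lineage, was at 185, 227, 172 and 152 CPM in Hdc-GFPhi replicates 1 to 4, against 194, 226, 141 and 200.1 CPM in Hdc-GFPlo replicates 1 to 4. Replicate 2 was the highest in both fractions, and the ranges were almost the same. The difference in log2 was -0.05 ± 0.15 (95% interval -0.38 to 0.29, edgeR adjusted p = 0.953), an interval that spans folds of 0.77 to 1.22. Beside Csf3r, none of 7 neutrophil markers was called by edgeR (1 had an unadjusted p under 0.05), DESeq2 or voom, all 7 had a log2 fold change below 0, and their sum was 1720 to 2396 CPM in Hdc-GFPhi, against 2121 to 2925 in Hdc-GFPlo. Their part in the Csf3r values was not tested.

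The receptors for GM-CSF and IL-3 pair an alpha chain that binds the factor with a beta chain that signals. Csf2ra, the GM-CSF alpha chain, was at 31.7, 28.4, 25.6 and 28.4 CPM in Hdc-GFPhi replicates 1 to 4, against 31.5, 25.5, 30.4 and 32.4 CPM in Hdc-GFPlo replicates 1 to 4. It was the steadiest of the 9 genes, with a within-fraction SD of 0.14 in log2 CPM, and its log2 fold change was -0.07 ± 0.13 (95% interval -0.35 to 0.21, edgeR adjusted p = 0.912). Il3ra, the IL-3 alpha chain, was at 15.2, 17.5, 10.5 and 11.5 CPM in Hdc-GFPhi replicates 1 to 4, against 11.3, 11.8, 13.5 and 10.4 CPM in Hdc-GFPlo replicates 1 to 4. Hdc-GFPhi replicates 1 and 2 were above every other library, while replicates 3 and 4 of that fraction were within the Hdc-GFPlo range. The log2 fold change of Il3ra was 0.22 ± 0.19 (95% interval -0.21 to 0.64, edgeR adjusted p = 0.783). It was 0.074 without Hdc-GFPhi replicate 2 and 0.33 without Hdc-GFPhi replicate 3.

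The beta chain Csf2rb was at 109, 156, 103 and 89.4 CPM in Hdc-GFPhi replicates 1 to 4, against 111, 145, 85.3 and 111 CPM in Hdc-GFPlo replicates 1 to 4. Its copy Csf2rb2, whose sequence is set beside it above, was at 18.9, 28.8, 12.4 and 13.4 CPM in Hdc-GFPhi replicates 1 to 4, against 15.4, 20.7, 12.4 and 17.0 CPM in Hdc-GFPlo replicates 1 to 4. Both genes were highest in replicate 2 of each fraction. The fractions overlapped, and for both genes Hdc-GFPhi replicate 2 lay above every Hdc-GFPlo library. The log2 fold change was 0.016 ± 0.18 for Csf2rb (95% interval -0.38 to 0.41, edgeR adjusted p = 0.988) and 0.17 ± 0.26 for Csf2rb2 (-0.39 to 0.73, adjusted p = 0.888). Csf2rb had 5.41 to 8.27 reads for each read of Csf2rb2 in Hdc-GFPhi and 6.52 to 7.23 in Hdc-GFPlo. The direction of the log2 fold change turned without Hdc-GFPhi replicate 2 for both genes, to -0.17 for Csf2rb and -0.13 for Csf2rb2.

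Il6ra, the binding chain for IL-6, which signals through the shared subunit gp130, was at 17.7, 27.4, 14.1 and 16.0 CPM in Hdc-GFPhi replicates 1 to 4. In Hdc-GFPlo replicates 1 to 4 it was at 27.3, 27.9, 22.4 and 23.3 CPM. The Hdc-GFPlo libraries lay close together, and replicate 2 was the only Hdc-GFPhi library within their range. Il6ra averaged 18.8 ± 5.92 CPM in Hdc-GFPhi, against 25.2 ± 2.76 in Hdc-GFPlo, with a log2 fold change of -0.43 ± 0.20 (95% interval -0.86 to 0.0037, edgeR adjusted p = 0.465). Without Hdc-GFPhi replicate 2 the log2 fold change was -0.67 (adjusted p = 0.107), and no alternative called it. Il6st, which encodes gp130, was at 63.3 ± 12.0 CPM in Hdc-GFPhi, against 79.3 ± 28.2 in Hdc-GFPlo (log2 fold change -0.33, adjusted p = 0.715).

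**Figure D2:**
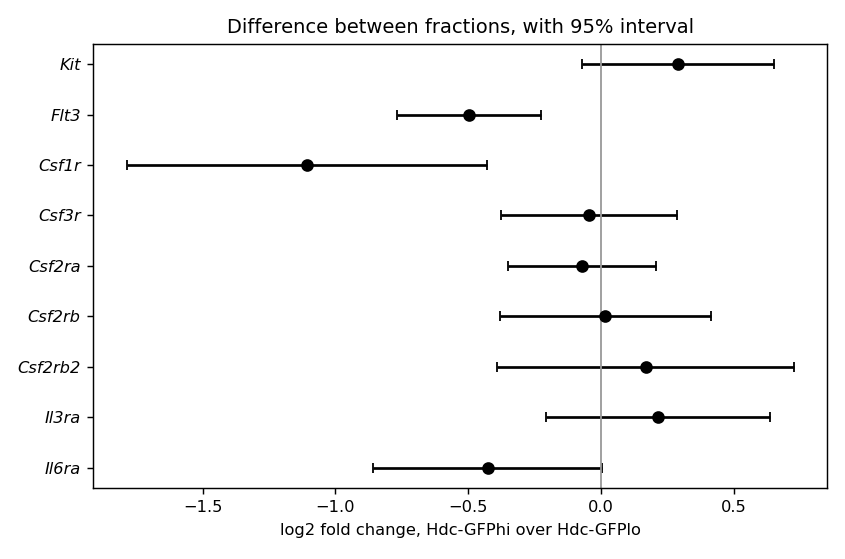
Log2 fold change of the 9 receptor genes, Hdc-GFPhi over Hdc-GFPlo, with 95% intervals from the edgeR fit. The intervals of Flt3 (-0.77 to -0.23) and Csf1r (-1.79 to -0.43) lie below 0, that of Il6ra ends at 0.0037, and the other 6 span 0.

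Variation within a fraction was shared by many of the receptors. In Hdc-GFPhi, replicate 2 had the highest value of 5 of the 9 genes (Csf3r, Csf2rb, Csf2rb2, Il3ra and Il6ra) and replicate 3 had the lowest value of 6. In Hdc-GFPlo, replicate 2 was the highest for 6 genes (Flt3, Csf1r, Csf3r, Csf2rb, Csf2rb2 and Il6ra) and replicate 3 the lowest for 7, all but Csf2ra and Il3ra. Replicate 2 had the smallest library total of each fraction (21041170 in Hdc-GFPhi and 16726179 in Hdc-GFPlo). Replicate 3 had the largest total in Hdc-GFPhi (22470121). In Hdc-GFPlo replicate 3 had 18204096 counts, and replicate 1 had the largest total (23051277). The genes are not independent measures of a library, and the source of this shared variation was not tested.

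Ratios within a library compare receptors without regard to the scaling between libraries. Per kilobase, Flt3 stood to Kit at 0.936, 0.869, 0.745 and 0.893 in Hdc-GFPhi replicates 1 to 4, against 1.60, 1.51, 1.85 and 1.17 in Hdc-GFPlo replicates 1 to 4. Per kilobase, Kit was thus the higher in every Hdc-GFPhi library and Flt3 in every Hdc-GFPlo library. By reads, Flt3 stood to Kit at 0.52 to 0.653 in Hdc-GFPhi and 0.819 to 1.29 in Hdc-GFPlo. In reads Kit was the higher in Hdc-GFPlo replicate 4. Reads of Csf1r stood to reads of Csf3r at 0.16, 0.115, 0.0786 and 0.126 in Hdc-GFPhi, against 0.274, 0.337, 0.179 and 0.18 in Hdc-GFPlo. Neither ratio overlapped between the fractions. The ratio of Csf1r to Flt3 did overlap, with 0.0169 to 0.0297 in Hdc-GFPhi and 0.0262 to 0.0538 in Hdc-GFPlo. So did the ratios of Csf2rb to Csf2rb2 and of Csf2rb to Csf2ra. These pairs were chosen with the values known, and no test was made. The share of all gene pairs whose ratio does not overlap was not computed.

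**Figure D3:**
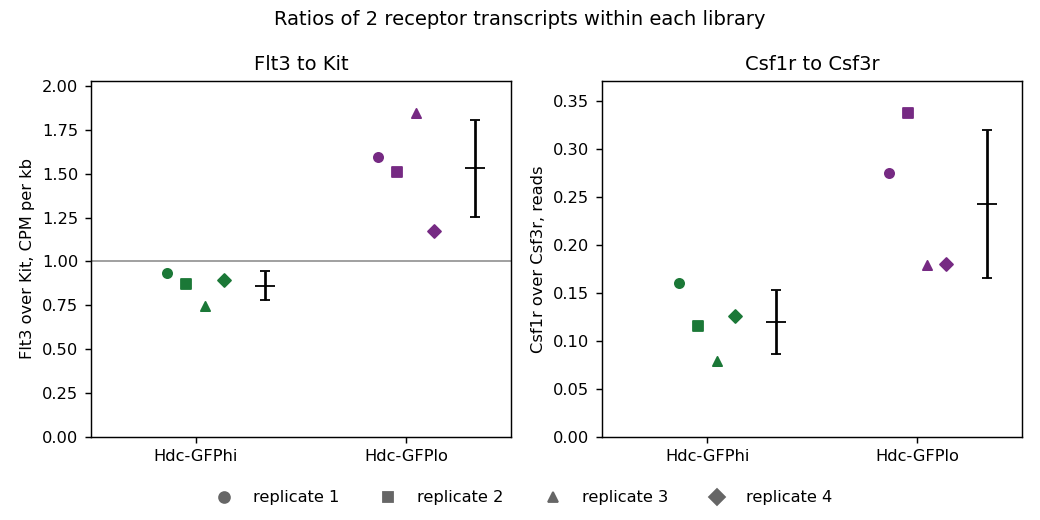
Ratio of Flt3 to Kit in CPM per kilobase (left, line at 1) and of Csf1r to Csf3r in reads (right) in each library, with marker shape giving the replicate number and bars the mean ± SD (n = 4 each). Flt3 to Kit is 0.745 to 0.936 in Hdc-GFPhi and 1.17 to 1.85 in Hdc-GFPlo.

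The genes whose values over the 8 libraries were most like each receptor were ranked by the root mean square difference between centred log2 CPM profiles, among 10654 candidates. For Flt3 these were Rasa4, at 0.079, the IL-1 receptor Il1r1, at 0.085, and the kinase Camk1d, at 0.087. Camk1d passed the threshold (log2 fold change -0.64, edgeR adjusted p = 0.0375). For Kit the closest were Hif1an (0.06), Gprasp1 (0.073) and Nup188 (0.075). Genes close to Csf1r were farther away, with Zfp658 at 0.234 and the small GTPase Rnd3 at 0.294.

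Transcripts of the ligands were scarce in these cells. Of 12 ligand genes only Flt3l and Csf1 had enough counts to test. Flt3l, the Flt3 ligand, was at 12.8 ± 1.13 CPM in Hdc-GFPhi, against 10.8 ± 1.14 in Hdc-GFPlo (log2 fold change 0.25, edgeR adjusted p = 0.665). Csf1, which encodes M-CSF, was at 9.41 ± 3.62 CPM in Hdc-GFPhi, against 7.81 ± 3.33 in Hdc-GFPlo (log2 fold change 0.27, adjusted p = 0.858, with 0.061 to 0.53 when each library was left out). Neither was called by DESeq2 or voom, and neither had an unadjusted p under 0.05. Kitl, which encodes stem cell factor, had 8 counts over the Hdc-GFPhi fraction and 10 over the Hdc-GFPlo fraction. Csf2, which encodes GM-CSF, had 13 counts over Hdc-GFPhi, 11 of them in 1 library, and 1 count over Hdc-GFPlo. Il3, Il6 and Epo had no count in any library.

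Among other cytokine receptors 1 gene was called of 21 tested, where 0.241% of all genes were called higher. Il11ra1, the alpha chain of the IL-11 receptor that also signals through gp130, rose to 56.2 ± 2.53 CPM in Hdc-GFPhi, against 36.0 ± 2.87 CPM in Hdc-GFPlo. Its log2 fold change was 0.65 ± 0.11 (edgeR adjusted p = 0.0143), and all 4 Hdc-GFPhi libraries were above all Hdc-GFPlo libraries. The call was lost without Hdc-GFPhi replicate 1 (adjusted p = 0.0582), Hdc-GFPlo replicate 1 (0.0752) or Hdc-GFPlo replicate 4 (0.0559), with a range of 2.1e-06 to 0.0752 over 19 alternatives. Its near-identical copy Il11ra2 had no count in any library. How reads that map to both genes of this pair were treated is not stated either. The IL-1 receptor Il1r1 was at 111 ± 9.62 CPM in Hdc-GFPhi, against 146 ± 20.6 in Hdc-GFPlo (log2 fold change -0.40, adjusted p = 0.183, and called lower by voom). The median log2 fold change of the 21 genes was -0.12.

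Other receptor tyrosine kinases had mostly positive differences. None of 14 tested genes was called by edgeR, while DESeq2 called 4 of the 16 with an adjusted p and voom 3 of 14, all higher (1.1% of all genes with DESeq2 and 0.744% with voom). By edgeR 7 had an unadjusted p under 0.05, all higher in Hdc-GFPhi (5.33% of all tested genes), and the median log2 fold change was 0.50 under TMM and 0.50 to 0.53 under the other scalings. Tie1, a receptor of endothelium and stem cells, was at 109 ± 14.7 CPM in Hdc-GFPhi, against 63.2 ± 19.4 in Hdc-GFPlo (log2 fold change 0.79, adjusted p = 0.0886). Axl, a receptor for Gas6, was at 32.05 ± 6.42 CPM in Hdc-GFPhi, against 19.8 ± 3.27 in Hdc-GFPlo (log2 fold change 0.70, adjusted p = 0.0854). Tie1 and Axl passed the threshold with DESeq2 (adjusted p = 0.00642 for Tie1 and 0.00827 for Axl) and with voom (0.0312 and 0.0456), and Tie1 also without Hdc-GFPlo replicate 2 (0.038).

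Genes that act downstream of the receptors differed little in their list medians. None of 26 tested signal transducers was called by edgeR, DESeq2 or voom, and their median log2 fold change was 0.0058. By edgeR 5 had an unadjusted p under 0.05 (1 higher, 4 lower). Of all tested genes 5.33% were higher and 5.56% lower at this p. Among those with the smallest p was the docking protein Gab3 (log2 fold change -0.80, adjusted p = 0.263). None of 17 signal inhibitors was called by edgeR (2 by DESeq2 and 1 by voom), 2 had an unadjusted p under 0.05 (1 higher, 1 lower), and the median was 0.02. Spry2, a feedback inhibitor of receptor tyrosine kinases, was at 2.82 ± 0.51 CPM in Hdc-GFPhi, against 6.76 ± 3.49 in Hdc-GFPlo (log2 fold change -1.26, adjusted p = 0.119, and 0.0152 with DESeq2). Without Hdc-GFPlo replicate 3 the log2 fold change of Spry2 was -0.82 (adjusted p = 0.244). Socs2, a feedback inhibitor of cytokine receptors, was at 36.8 ± 5.68 CPM in Hdc-GFPhi, against 25.1 ± 4.93 in Hdc-GFPlo (log2 fold change 0.56, adjusted p = 0.168, 0.0492 with DESeq2 and 0.033 with voom). Without Hdc-GFPlo replicate 3 Socs2 was called higher (log2 fold change 0.71, edgeR adjusted p = 0.0414).

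**Figure D4:**
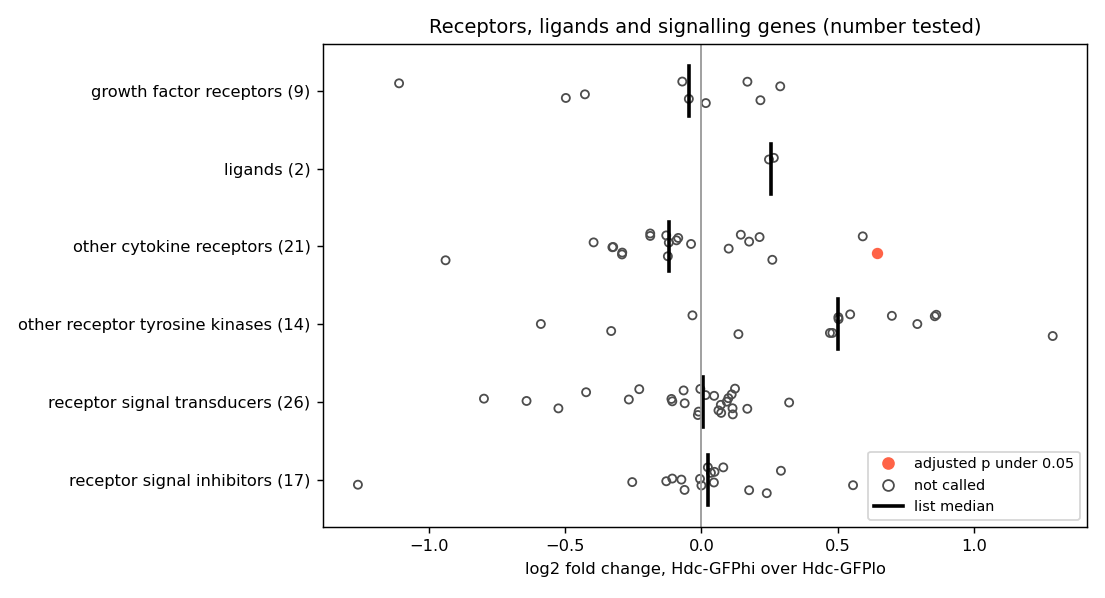
Log2 fold change, Hdc-GFPhi over Hdc-GFPlo, of the 9 receptor genes and of tested ligands, other receptors, signal transducers and signal inhibitors (1 point per gene, vertical offsets only separate points, lines at list medians). The filled point is Il11ra1 at 0.65, and the list of other receptor tyrosine kinases has a median of 0.50.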

How the data were processed

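The data were raw read counts per gene symbol, deposited as whole numbers that were not normalized. The submitters' processing notes name build mm9, HTSeq 0.6.1, TopHat2 (listed as 2.04), Bowtie2 and bcl2fastq 1.8.4. Settings, annotation and strand use were not given in the sources used here. In GENCODE M21 the gene spans of Flt3, Csf1r, Il3ra and Il6ra overlap genes on the other strand. Whether this added reads to the counts of these receptors or removed reads from them was not tested. Per the labels' protocols, RNA was amplified with a SMARTer kit and made into Nextera XT libraries, without molecular identifiers named.

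Genes were kept with filterByExpr, scaled by TMM and tested with edgeR 4.0.16 (glmQLFit robust, glmQLFTest, no covariate) in R 4.3.3, with a threshold of 0.05 on the adjusted p. The script was tested on simulated data. CPM is TMM-scaled and log2 CPM used a prior count of 2. Fold changes are Hdc-GFPhi over Hdc-GFPlo. Groups and replicate numbers came from the titles, and columns from library codes in the descriptions. No label says that replicates are separate animals, so the p-values reflect only how these samples vary, possibly for technical reasons. Alternatives used DESeq2 1.42.0 and limma 3.58.1 (voom with sample weights), other scalings and filters, covariates and left-out libraries.

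Transcript lengths and sequences came from GENCODE (GRCm38, not the build of the counts). Coding sequences were aligned with Biopython 1.88. All receptors are named. Of the related lists, called genes and the smallest p values are named, and up to 3 most alike genes for Flt3, Csf1r and Kit. Ratios get no test. The members and lists were chosen with earlier results of these data known, and some genes that these rules name are not reported here.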

Additional observations from a re-analysis of the deposited data

How the results depend on the processing

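The 9 receptor genes kept the sign of their log2 fold change over 19 alternatives, with these exceptions, none of them called. Csf3r turned to 0.039 without Hdc-GFPhi replicate 4 and to 0.047 without Hdc-GFPlo replicate 2. Csf2rb turned to -0.037 with voom, to -0.17 without Hdc-GFPhi replicate 2 and to -0.083 without Hdc-GFPlo replicate 3, and Csf2rb2 to -0.13 without Hdc-GFPhi replicate 2. With each library left out, the log2 fold change was -0.16 to 0.047 for Csf3r, -0.17 to 0.16 for Csf2rb and -0.13 to 0.33 for Csf2rb2. The 0 receptor genes called became 2 with DESeq2, 1 with voom, 2 with the term for replicates 1 and 2 against 3 and 4, 1 when Hdc-GFPlo replicate 3 was dropped along with Hdc-GFPhi replicate 4, and 0 to 1 with each library left out in turn. The calls were of Flt3 and Csf1r. The cause of these moves was not tested. The 126 genes called over the whole table (32 higher, 94 lower) became 410 with DESeq2 (163 higher, 247 lower), 278 with voom, 275 with the same term and 52 to 146 with each library left out, 52 without Hdc-GFPlo replicate 1 and 68 without Hdc-GFPhi replicate 3.

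With the replicate number as a block, 224 genes and 2 of the receptor genes were called (adjusted p = 0.0332 for Flt3 and 0.00651 for Csf1r). No label says what a replicate number shares, and not every correlation passed 0.1, so the numbers were not taken as pairs. The correlations of their deviations from the fraction means were 0.257, 0.347, 0.0755 and 0.1 for replicates 1 to 4, with replicates 1 and 2 each correlating best with their own number and replicates 3 and 4 each with the other's. The other scalings and filters left the receptors uncalled.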

Other observations

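The ratio of the GM-CSF beta and alpha chains differed between libraries of a fraction. Reads of Csf2rb stood to reads of Csf2ra at 3.45, 5.49, 4.01 and 3.14 in Hdc-GFPhi replicates 1 to 4, against 3.52, 5.67, 2.81 and 3.43 in Hdc-GFPlo replicates 1 to 4. Replicate 2 had the highest ratio in both fractions. Megakaryocyte markers were the marker list with every tested member higher in Hdc-GFPhi (6 of 6, none called by edgeR, 2 with an unadjusted p under 0.05, 1 called by DESeq2 and 0 by voom), with a summed level of 130.7 to 149 CPM in Hdc-GFPhi, against 81.2 to 110.2 in Hdc-GFPlo. A further pair of receptors was chosen after the values were seen. The erythropoietin receptor Epor was at 9.23 ± 1.32 CPM in Hdc-GFPhi, against 6.12 ± 2.36 in Hdc-GFPlo (SD over 4 libraries each, log2 fold change 0.59, edgeR adjusted p = 0.416). The angiopoietin receptor Tek was at 51.1 ± 15.8 CPM in Hdc-GFPhi, against 28.1 ± 9.97 in Hdc-GFPlo (log2 fold change 0.86, edgeR adjusted p = 0.173). DESeq2 called Tek higher and voom did not, and its 4 Hdc-GFPhi libraries were above its 4 Hdc-GFPlo libraries.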
